A study of Mus musculus with 55 samples.

Results

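The genes described here are the solute carriers that granulocytes of mouse bone marrow express: rows whose symbol starts with SLC and a digit and whose mean normalised value over the 15 granulocyte libraries was at least 10. They number 50 of the 351 such rows among the 15729 genes with a symbol. RNA of granulocytes sorted from bone marrow was measured by MARS-seq, which reads a tag near the 3' end of each transcript, in a study of breast cancer metastasis to bone. The marrow was normal (4 libraries), early metastatic (4), or late metastatic, where the peripheral marrow (4) and the bone metastatic core (3) were taken from the same mouse. The titles of the early libraries read Premet. Where metastatic libraries or marrows are named together below, the early ones are included, and whether they held tumour cells was not tested. Sorted CD4 helper, CD8 cytotoxic and CD4+CD25+ regulatory (Treg) T cells of the same marrows gave 40 further libraries. The labels give no strain, age, sex, tumour line or treatment. For granulocytes of the core, the title was used, since the tissue label of these libraries is also bone marrow. The labels do not say that libraries of a group are separate animals, so p-values measure the spread between libraries. In such sorted pools, fewer cells of a type and less RNA per cell cannot be told apart.

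Solute carriers are membrane proteins that move sugars, amino acids, metals, ions, nucleotides and vitamins across the plasma membrane, the mitochondrial inner membrane and the membranes of lysosomes and the Golgi. Neutrophils, the main granulocytes of marrow, have few mitochondria and depend largely on glycolysis, so they take up glucose through carriers of the SLC2 family and release lactate through the SLC16 family. They also withhold iron, manganese, zinc and copper from microbes, and several metal carriers sit in their granules and phagosomes.

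The members were chosen by their mean normalised value in granulocytes, so their level is a description. Just inside the limit stood SLC50A1 at a mean of 10.1 and SLC16A6 at 10.7, and just outside it SLC45A4 and SLC7A5, at 9.999 and 9.996. The members are 14.2% of the SLC rows, against 20.2% of all features that reached the same mean, and 117 SLC rows (33.3%) had no read in any granulocyte library. By role they are 11 mitochondrial carriers, 9 metal and haem carriers and 5 nucleotide sugar and sulphate donor carriers of the secretory pathway. There are 4 each of sugar carriers, surface amino acid carriers and ion exchangers of the plasma membrane. The remaining 13 include 2 scaffold proteins, SLC9A3R1 and SLC9A3R2, which carry an SLC name without being carriers. In 44 of the 50 the mean was at least 10 in every one of the 4 marrows; SLC28A2, SLC39A1, SLC9A3R2, SLC39A4, SLC16A6 and SLC50A1 reached the limit through some marrows only. All 50 passed the filter of the tests, a value of at least 10 in 3 libraries.

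Granulocyte libraries held 357058 to 1633022 reads, with the fewest in core replicate 3. Summed neutrophil markers stood at 47720 to 207100 and T cell markers at no more than 26.3, so the label fitted the markers. The T cell marker sums were 11.9 to 26.3 in the core and at most 11.25 in the other marrows. Sums of 4 B cell markers were 12.2 to 20.2 in normal marrow and at most 5.85 in every metastatic library. Summed values of 8 macrophage markers were 260 to 366 in the core and 69.7 to 145 in the other marrows, and 5 mammary tumour epithelium markers summed to 9.49 to 20.2 in the core and at most 7.50 elsewhere. Transcripts of 6 lung genes summed to over 100 in normal replicates 1 and 2, early 1 and 3, peripheral 1, and core 2 and 3. The part of these transcripts in the results was not tested beyond the values given without those libraries, with only them, or with the presence of these transcripts as a term in the fit. Without them the core is 1 library.

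Across the stages 9 of the 50 genes passed the test in at least 1 of 5 comparisons, at a limma adjusted p under 0.05 over all 3808 tested genes. That is 18% of the members, beside 16.4% of all tested genes. In early against normal marrow 2 were higher and 1 was lower, that is 6% of the members, beside 4.78% of all tested genes (3.05% higher and 1.73% lower). Late peripheral against normal marrow gave 2 higher and 3 lower, 10% of the members beside 8.14% of the genes (3.83% higher and 4.31% lower). The metastatic core against normal marrow gave 5 higher and 2 lower, 14% of the members beside 12.6% of the genes (6.07% higher and 6.49% lower). Between the core and late peripheral marrow 1 was higher and 0 were lower, 2% of the members beside 1.68% of the genes (1.55% higher and 0.131% lower). Late peripheral and early marrow gave 0 calls by limma, for the members and for all genes (0%) alike; 2 members had an unadjusted p under 0.05 there, and edgeR and DESeq2 also called 0 members. The share of members called thus lay near that of all genes in each comparison, and the median log2 difference of the members was between -0.10 and 0.06, beside -0.07 and 0.00 for all tested genes. The count of members whose libraries did not overlap was also near the background: 8 of 50 (16%) for early against normal, where 7.38% of genes lay wholly above and 6.54% wholly below, 9 of 50 (18%) for late peripheral against normal, where the shares were 9.95% and 10.8%, and 11 of 50 (22%) for the core against normal, where they were 10.7% and 13.6%. For late peripheral against early it was 0 of 50, where 2.28% of genes lay above and 2.47% below, and for the core against late peripheral 5 of 50, where each share was 5.17%.

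**Figure D1:**
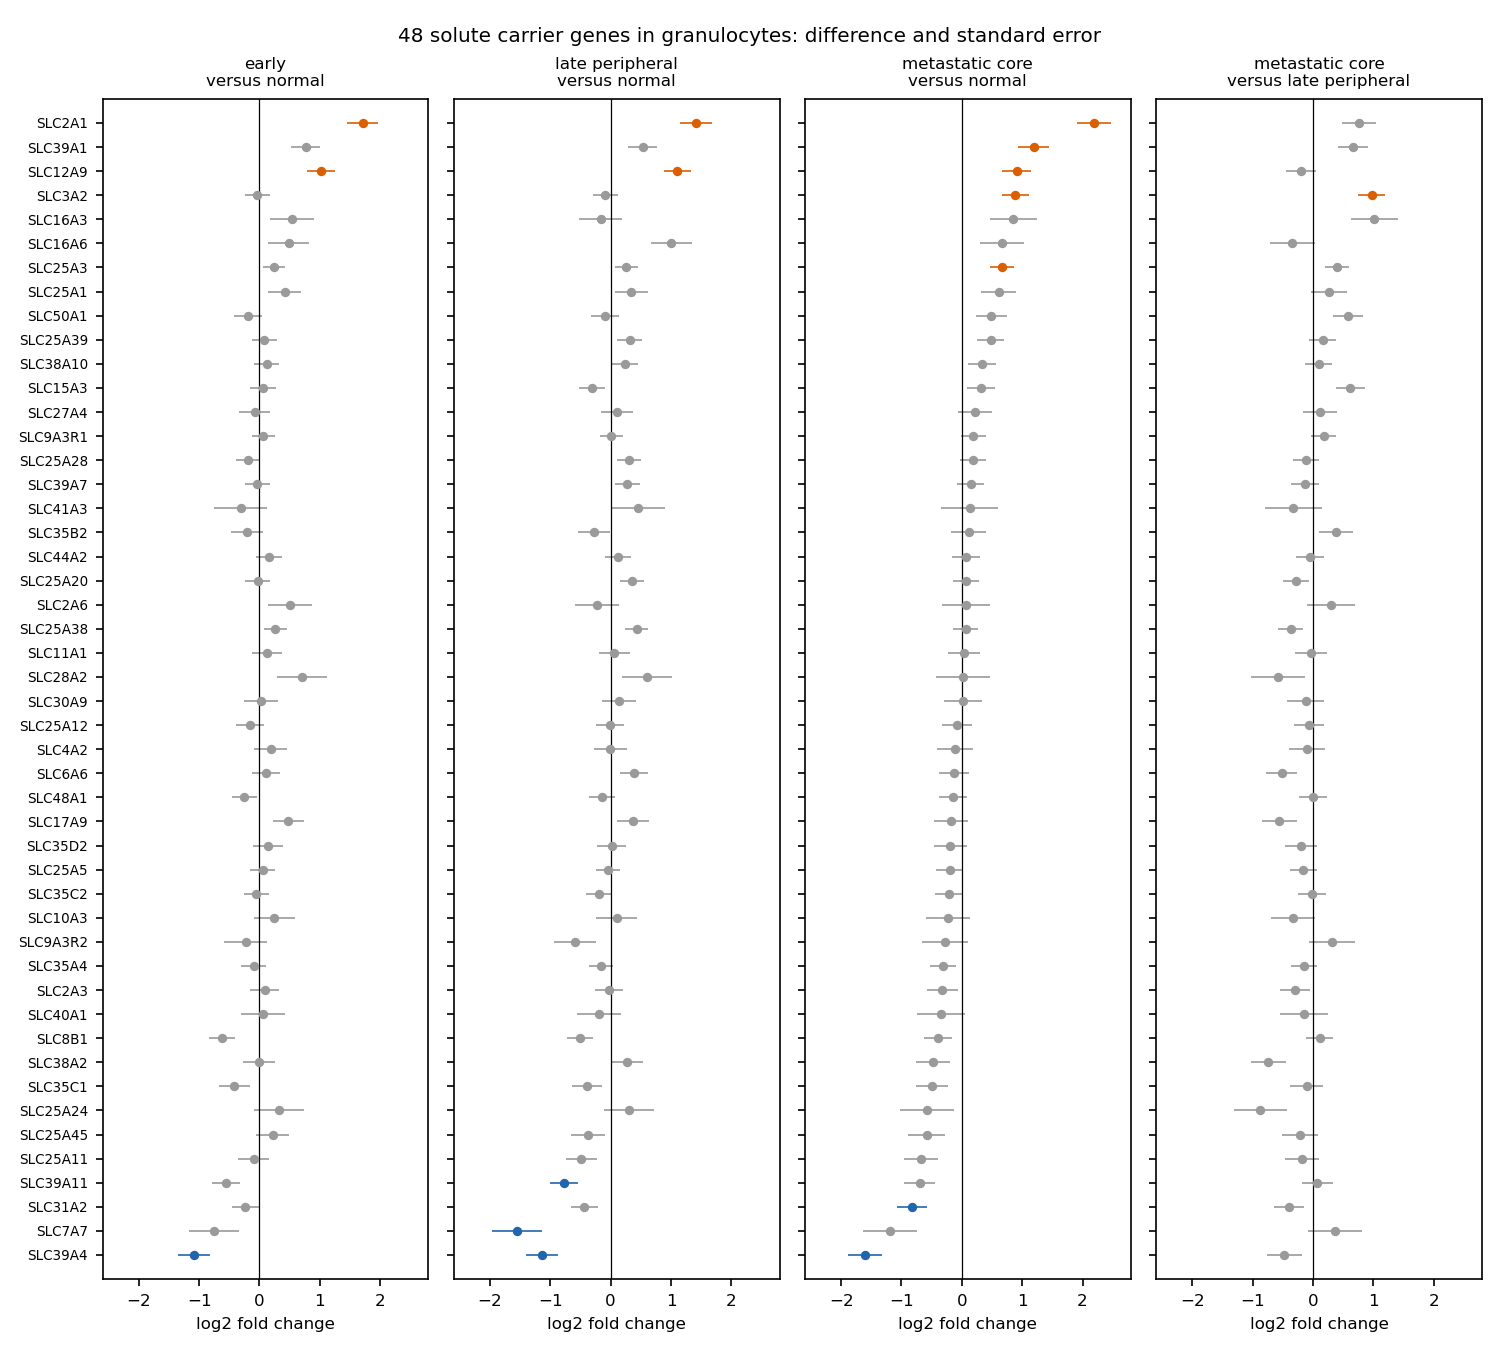
Log2 difference with its standard error (x axis, on the log2(value + 4) scale) of 48 of the 50 genes (y axis) in 4 granulocyte comparisons, with orange points for genes called higher and blue points for genes called lower. Most genes lie near 0, SLC2A1 stands at the upper end of the 3 comparisons with normal marrow and SLC39A4 at the lower end of 2 of them, with SLC7A7 lower in late peripheral marrow.

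Among the sugar carriers, SLC2A1 (GLUT1, the basal glucose importer of many cells) was higher in every kind of metastatic marrow. Its normalised values were 34.3, 39.7, 47.3 and 49.2 in normal marrow, 117, 157, 147 and 174 in early marrow, 64.0, 143, 132 and 168 in late peripheral marrow and 269, 145 and 224 in the core. All 11 metastatic libraries lay above all 4 normal ones, with peripheral replicate 1 the lowest of them. The log2 difference from normal marrow was 1.71 ± 0.26 (SE; limma adjusted p = 0.00106) in early, 1.42 ± 0.26 (limma adjusted p = 0.00283) in late peripheral marrow and 2.18 ± 0.28 (limma adjusted p = 6.77e-05) in the core. These 3 calls held under every alternative but 1: with only the libraries that carry lung transcripts, which leave 1 peripheral library, the peripheral difference was 0.73 (limma adjusted p = 0.993). Core and late peripheral marrow differed by 0.77 ± 0.28, which did not pass (limma adjusted p = 0.254). It passed with lung transcripts as a term (1.001, limma adjusted p = 0.0167) and in the libraries without them, with 1 core library (0.86, limma adjusted p = 0.028). The value rests on 37 to 624 reads per library. The gene lies on chromosome 4 (GRCm38, 119108711 to 119137983, plus strand), where exons of Gm12868 lie on the opposite strand, and no label or header says whether reads were counted by strand.

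SLC2A3 (GLUT3, the high-affinity glucose importer of neutrophils) did not pass in any comparison. Its values were 346 to 477 in normal, 295 to 512 in early, 325 to 525.9 in late peripheral and 244 to 470 in core granulocytes, so all groups overlapped. SLC2A6 (GLUT6, an intracellular hexose carrier) ranged from 32.5 to 124 over the 15 libraries, and peripheral replicates 1 and 2 and core replicate 2 were low, at 41.5, 32.5 and 36.3. SLC50A1, of the SWEET sugar carrier family, stood at 16.6, 12.99 and 15.5 in the core and at 5.01 to 13.8 elsewhere; its core against peripheral difference was 0.58 ± 0.25 and did not pass (limma adjusted p = 0.349). Of 14 tested genes of a glycolysis list, 1 rose in early marrow: LDHA, which makes lactate from pyruvate, by 0.62 ± 0.16 (limma adjusted p = 0.0344), from 582 ± 51.1 to 893 ± 13.03 (mean ± SD, n = 4 each). In the core LDHA rose by 0.64 ± 0.18 (limma adjusted p = 0.0247) while HK2, a hexokinase that starts glycolysis, fell by 1.34 on the log2 scale with an SE of 0.29 (limma adjusted p = 0.00495), from 14.6 ± 0.848 to 3.54 ± 1.83 (n = 4 and 3). HK2 was also the 1 glycolysis gene that fell in late peripheral marrow, to 5.78 ± 2.86 (n = 4), with a log2 difference of -0.97 ± 0.26 (limma adjusted p = 0.0293).

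The lactate exporter SLC16A3 (MCT4, the monocarboxylate carrier of glycolytic cells) varied widely among the core libraries. It stood at 334, 285, 380 and 434 in normal marrow, 527, 584, 402 and 579 in early, 244, 194, 354 and 590 in late peripheral and 1342, 334 and 585 in the core. Core replicate 1 was far above every other library, while core replicate 2 lay within the normal range. The core was 0.85 ± 0.39 above normal and 1.01 ± 0.39 above late peripheral marrow on the log2 scale, and neither passed (limma adjusted p = 0.175 and 0.271). The study took both late sites from the same mouse, but no label says that the number in the file names, used here to pair libraries, is the mouse, and 1 of the 3 granulocyte pairs deviated in opposite directions (correlation -0.337). With this number as a block the core against peripheral difference was 1.31 and passed (limma adjusted p = 0.0289); it also passed without core replicate 2, at 1.48 (limma adjusted p = 0.0446), and in the libraries without lung transcripts, with 1 core library, at 1.95 (limma adjusted p = 0.0223). Without core replicate 1 it was 0.48 (limma adjusted p = 0.601), and the core against normal difference was then 0.32 (limma adjusted p = 0.582). DESeq2 called the core against normal difference (1.12, adjusted p = 0.0266), as did limma without core replicate 2 (1.31, adjusted p = 0.033) and in the libraries without lung transcripts (1.71, adjusted p = 0.0415). The core libraries had the highest macrophage and T cell marker sums, whose part in this was not tested. SLC16A6 (MCT7) stood at 3.75 to 7.41 in normal and 10.3 to 20.3 in late peripheral granulocytes, without overlap, and its log2 difference of 1.01 ± 0.34 did not pass (limma adjusted p = 0.076). EdgeR's quasi-likelihood test and DESeq2 called it, and limma did so without early replicate 3 and in the libraries without lung transcripts.

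Of the surface amino acid carriers, SLC3A2 (CD98 heavy chain, which brings several SLC7 light chains to the cell surface) rose in both comparisons that involve the core. Its values were 31.5, 32.2, 32.99 and 41.8 in normal, 36.7, 28.4, 40.5 and 29.3 in early, 29.3, 27.7, 40.5 and 32.1 in late peripheral and 97.3, 50.6 and 60.3 in core granulocytes. Each core library lay above all 12 others. The log2 difference was 0.88 ± 0.22 against normal (limma adjusted p = 0.015) and 0.97 ± 0.22 against late peripheral marrow (limma adjusted p = 0.0284), the 1 member called between the late sites. That second call was lost with the same block (0.97, limma adjusted p = 0.0618), and without peripheral replicate 1, 2 or 4 or core replicate 1 or 3, at 0.72 to 1.04 (limma adjusted p = 0.0631 to 0.193). It was also lost with reads scaled to the library total (0.75, limma adjusted p = 0.131) and with no filter. The first call was lost without core replicate 1 (0.63, limma adjusted p = 0.0714). Both calls were lost with only the libraries that carry lung transcripts, which leave 1 peripheral library. Here, too, the core libraries are those with macrophage marker sums of 260 to 366 and T cell marker sums of 11.9 to 26.3, whose part was not tested.

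SLC7A5 (LAT1), the light chain that pairs with SLC3A2 to import leucine and other large neutral amino acids, stood just outside the limit that chose the members. It was at 2.78, 2.25, 2.604 and 0.740 in normal, 8.43, 8.77, 19.4 and 9.19 in early, 13.5, 13.5, 17.5 and 12.6 in late peripheral and 13.5, 8.21 and 17.01 in core granulocytes. All metastatic libraries lay above all normal ones, whose values come from 2 to 6 reads each. The log2 difference from normal marrow was 1.302 ± 0.25 in early (limma adjusted p = 0.00539), 1.59 ± 0.25 in late peripheral (limma adjusted p = 8.05e-04) and 1.45 ± 0.27 in core granulocytes (limma adjusted p = 0.00181). With only the libraries that carry lung transcripts, which leave 1 peripheral library, none of these rises was called. Limma-voom did not call the early rise either. SLC7A7 (y+LAT1, another light chain of SLC3A2, which exports basic amino acids) moved the other way: it stood at 56.5, 41.2, 51.2 and 51.4 in normal, 24.1, 29.7, 25.9 and 32.9 in early, 13.1, 4.38, 22.3 and 25.6 in late peripheral and 34.8, 5.13 and 32.5 in core granulocytes. Every metastatic library was below every normal one. The difference passed in late peripheral marrow (-1.56 ± 0.41, limma adjusted p = 0.029), where the call was lost without any one of normal replicates 1 to 4 or peripheral replicates 1 and 2, at -1.64 to -1.18 (limma adjusted p = 0.0515 to 0.0905). This call was also lost in the libraries without lung transcripts and in only those with them, which leave 1 peripheral library. The difference did not pass in early marrow or the core, where the value was -1.20 ± 0.45 (limma adjusted p = 0.0932). The core value rests on core replicate 2, without which it was -0.52 (limma adjusted p = 0.383). It passed without core replicate 1 (-1.56, limma adjusted p = 0.0445), without peripheral replicate 2 (-1.20, limma adjusted p = 0.0485) and with limma-voom (-1.93, adjusted p = 0.0482). The macrophage marker C1QA stood at 8.68 to 24.1 in normal, 1.91 to 4.96 in late peripheral and 81.97 to 109 in core granulocytes, and C1QB and C1QC had means of 13.6 and 8.97, 3.61 and 1.78, and 57.4 and 55.6 in the same marrows. The rest of that list did not move alike. CSF1R had means of 82.6, 86.07 and 85.55 in these marrows, and CD5L 0.419, 0.0641 and 0. ADGRE1, MRC1 and VCAM1 had means of at most 1.69, lowest in late peripheral marrow and highest in the core. The part of these markers in the SLC7A7 values, and that of the B cell markers given above, was not tested. SLC7A7 shares exonic sequence with Oxa1l on the opposite strand.

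The neutral amino acid importer SLC38A2 (SNAT2) ranged from 24.5 to 105 and had a core against peripheral difference of -0.74 ± 0.29 (limma adjusted p = 0.273). SLC38A10 ranged from 37.3 to 77.3. Of 6 tested genes of an amino acid response list, 1 rose in each of the 3 comparisons with normal marrow and 0 fell: ASNS, asparagine synthetase, a target of the amino acid starvation response. ASNS was at 14.03 ± 1.71 in normal (n = 4), 37.8 ± 5.97 in early (n = 4), 26.4 ± 5.39 in late peripheral (n = 4) and 29.3 ± 12.8 in core granulocytes (n = 3). Its log2 differences from normal were 1.21 ± 0.22 (limma adjusted p = 0.00434), 0.74 ± 0.22 (limma adjusted p = 0.049951) and 0.83 ± 0.24 (limma adjusted p = 0.0326).

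Among the 9 metal and haem carriers, 2 zinc importers of the ZIP family moved in opposite directions. SLC39A4 (ZIP4, the importer known for zinc uptake in the intestine) stood at 22.2, 17.2, 19.1 and 27.7 in normal, 4.21, 11.2, 12.95 and 5.57 in early, 5.86, 8.76, 5.13 and 11.5 in late peripheral and 3.96, 6.16 and 3.09 in core granulocytes. No metastatic library reached the lowest normal one. The mean was below 10 in each metastatic marrow, so SLC39A4 reached the limit that chose the members through normal marrow alone. Its choice as a member thus rested on the group in which it was high. The log2 difference from normal was -1.08 ± 0.26 in early (limma adjusted p = 0.0206), -1.13 ± 0.26 in late peripheral (limma adjusted p = 0.0138) and -1.61 ± 0.29 in core granulocytes (limma adjusted p = 0.00118). The core values rest on 5, 18 and 2 reads and the normal ones on 23 to 75. The early call was lost without normal replicate 1, 3 or 4 or early replicate 1 or 4, at -1.13 to -0.90 (limma adjusted p = 0.0534 to 0.0921). The peripheral one was lost without normal replicate 4 or peripheral replicate 3, at -1.02 in both (limma adjusted p = 0.0567 and 0.0559). Reads scaled to the library total lost the early and the peripheral call too. The early call was also lost in the libraries without lung transcripts. In only the libraries with them, which leave 1 peripheral library, the early, peripheral and core calls were all lost. The B cell marker sums were also lower in all metastatic libraries, and their part in this and the other falls from normal marrow was not tested.

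SLC39A1 (ZIP1, a widely expressed zinc importer of the plasma membrane) stood at 4.63, 8.997, 5.64 and 7.03 in normal, 15.7, 12.7, 15.4 and 11.7 in early, 9.47, 9.49, 14.9 and 11.1 in late peripheral and 25.3, 11.3 and 26.3 in core granulocytes. All normal libraries lay below all others. The mean was below 10 in normal marrow alone, so SLC39A1 reached the limit through the metastatic marrows. The core difference of 1.19 ± 0.25 passed (limma adjusted p = 0.00489), while the early one of 0.77 ± 0.24 and the peripheral one of 0.53 ± 0.24 did not (limma adjusted p = 0.0725 and 0.189). This core call was lost with only the libraries that carry lung transcripts. SLC39A11 (ZIP11, an intracellular ZIP carrier) passed in late peripheral marrow (-0.77 ± 0.23, limma adjusted p = 0.0493), where it stood at 9.93 to 17.6 against 20.4 to 28.5 in normal marrow. This call held in 11 of 27 alternatives, and edgeR's quasi-likelihood test was among those that lost it. SLC39A7 (ZIP7, which releases zinc from the endoplasmic reticulum) and SLC30A9 (a mitochondrial zinc carrier) ranged from 15.4 to 34.7 and from 6.33 to 23.2, and no comparison of either passed.

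SLC31A2 (CTR2, a copper carrier of endosomes and lysosomes) stood at 100, 87.0, 87.7 and 102 in normal marrow and at 34.8, 82.1 and 46.4 in the core. The core lay below normal in every library, with core replicate 2 close to it, and the log2 difference of -0.83 ± 0.25 passed (limma adjusted p = 0.0341). It held in 15 of 28 alternatives, and edgeR, DESeq2 and limma-voom on the recovered reads did not call it. No iron or haem carrier passed in any granulocyte comparison. SLC11A1 (NRAMP1, which pumps iron and manganese out of the phagosome) was at 84.3 to 198, SLC48A1 (HRG1, a haem carrier of the endolysosome) at 24.7 to 51.5 and SLC40A1 (ferroportin, the cellular iron exporter) at 11.9 to 60.5 over the 15 libraries. The core against normal difference of SLC11A1 was 0.03 ± 0.27 and that of SLC48A1 was -0.14 ± 0.23. Of 7 tested genes of an iron and haem list, 1 rose in the core: FTH1, the ferritin heavy chain that stores iron, by 1.16 ± 0.23 (limma adjusted p = 0.00275), from 2456 ± 377 (n = 4) to 5534 ± 1106 (n = 3). The macrophage and T cell marker sums of the core stand beside this rise and that of SLC39A1, and their part was not tested. The ferritin heavy chain and SLC25A5 have near-identical copies in the genome, so their counts are less certain.

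**Figure D2:**
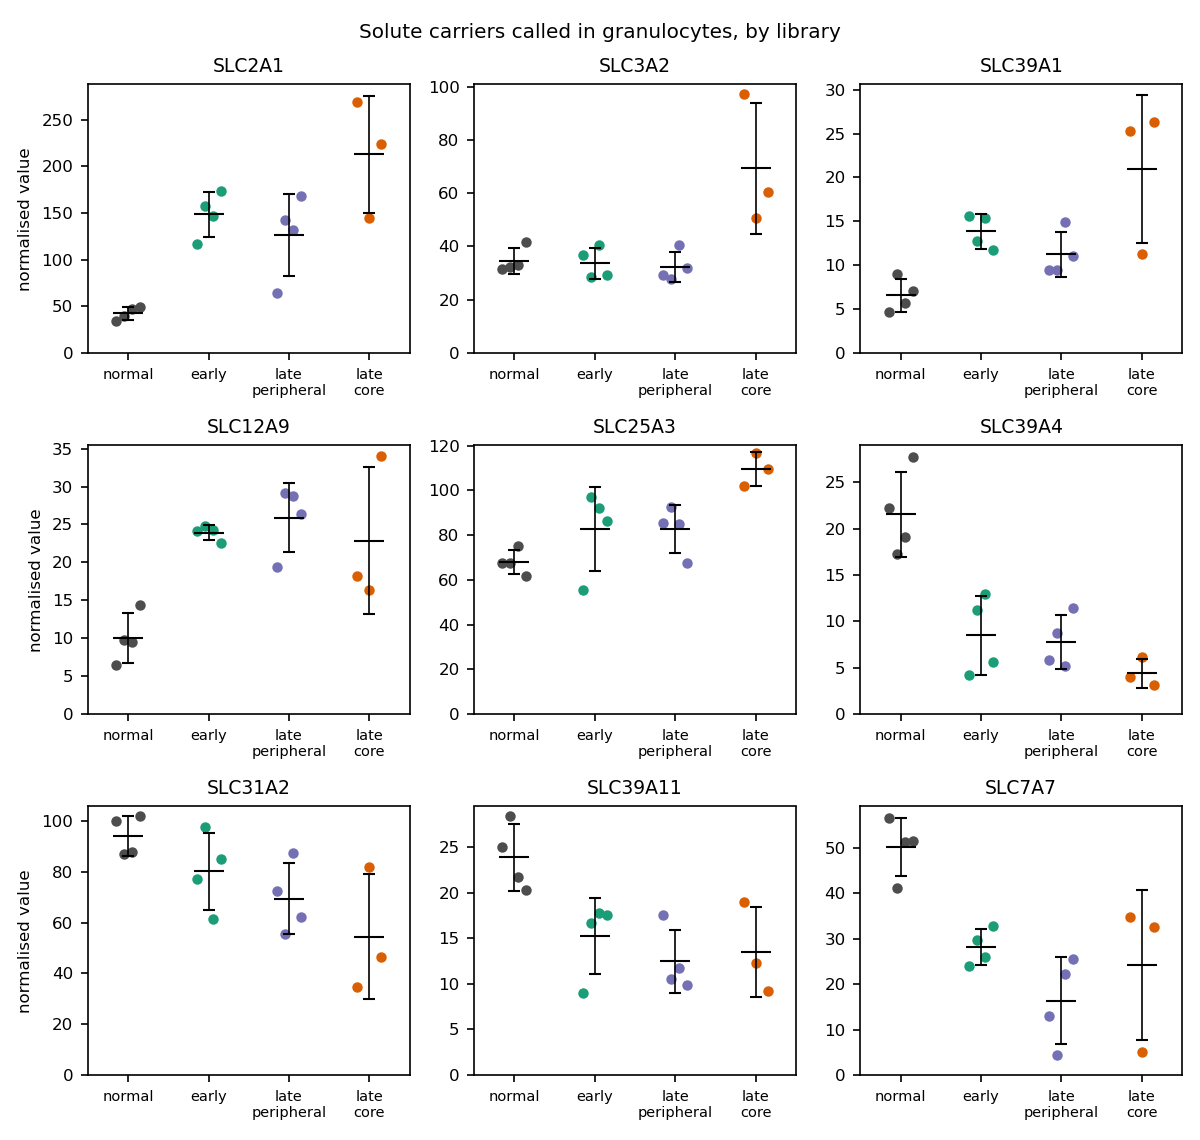
Normalised value (y axis, from 0) in each granulocyte library, by marrow (x axis), for the 9 solute carriers called in at least 1 comparison; points are libraries, and bars are the mean and SD of 4, 4, 4 and 3 libraries. SLC2A1 stood above normal in all metastatic libraries and SLC39A4 below, while SLC3A2 and SLC25A3 stood apart in the core.

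Of the 11 mitochondrial carriers, 1 passed: SLC25A3, the phosphate carrier that feeds ATP synthase. It stood at 67.6, 67.5, 75.1 and 61.8 in normal, 55.4, 97.1, 92.3 and 86.4 in early, 85.6, 92.7, 84.9 and 67.6 in late peripheral and 102, 117 and 110 in core granulocytes. The core libraries were the 3 highest of the 15, and the core against normal difference was 0.66 ± 0.20 (limma adjusted p = 0.0374), held in 17 of 28 alternatives. Leaving out any one of normal replicates 1 to 4 or core replicates 2 and 3 lost it, at 0.61 to 0.71 (limma adjusted p = 0.064 to 0.106). SLC25A11 (the oxoglutarate carrier) had a core against normal difference of -0.68 ± 0.28 and SLC25A39 (a glutathione carrier) one of 0.48 ± 0.23, and neither passed (limma adjusted p = 0.124 and 0.188). The median difference of the 11 from normal was 0.08 in early, 0.30 in late peripheral and 0.06 in core granulocytes. SLC25A24, a calcium-regulated ATP-magnesium carrier, was at 4.75 in core replicate 1 and at 21.0 to 68.7 in the other libraries.

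Among the ion exchangers, SLC12A9, a member of the cation-chloride cotransporter family, was higher in all 3 metastatic marrows. It stood at 6.48, 9.75, 9.55 and 14.4 in normal, 24.1, 24.8, 24.3 and 22.6 in early, 19.4, 29.2, 28.7 and 26.4 in late peripheral and 18.2, 16.4 and 34.03 in core granulocytes. No normal library reached any of the others. The log2 difference from normal was 1.02 ± 0.23 (limma adjusted p = 0.0134), 1.11 ± 0.23 (limma adjusted p = 0.0058) and 0.91 ± 0.25 (limma adjusted p = 0.0224) in early, late peripheral and core granulocytes. The early call was lost without normal replicate 1 (0.89, limma adjusted p = 0.0559), and the core call without normal replicate 1 or 3 or core replicate 3, at 0.63 to 0.90 (limma adjusted p = 0.0585 to 0.13). Both calls were also lost in the libraries without lung transcripts, which leave 1 core library, and in only those with them. Limma-voom lost the core call too. The late peripheral call was lost in only the libraries with lung transcripts, with 1 peripheral library. SLC4A2 (a chloride-bicarbonate exchanger) did not pass in any comparison. The mitochondrial sodium-calcium exchanger SLC8B1 (NCLX) stood at 23.7 to 28.7 in normal and at 13.3 to 22.7 in early granulocytes without overlap, and its difference of -0.62 ± 0.21 did not pass (limma adjusted p = 0.117).

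None of the 5 nucleotide sugar and sulphate donor carriers passed in any comparison. They include SLC35C1, the GDP-fucose carrier of the Golgi that fucosylated selectin ligands of leukocytes need, which was at 10.2 to 24.3 in normal and 8.21 to 12.7 in core granulocytes. The 2 lysosomal and vesicular carriers did not pass either: SLC15A3, a peptide and histidine carrier, stood at 125 to 159 in normal granulocytes and at 249, 131 and 173 in the core, 0.62 ± 0.23 above late peripheral marrow (limma adjusted p = 0.258). SLC17A9, the vesicular ATP carrier, stood at 22.5 to 33.3 in normal and 33.7 to 45.7 in early granulocytes. SLC44A2, a choline carrier that bears a human neutrophil antigen, was at 47.2 to 90.8, with a core against normal difference of 0.08 ± 0.23. SLC28A2, a purine nucleoside importer, ranged from 4.05 to 26.4, SLC6A6, the taurine importer, from 43.95 to 101, and SLC27A4, a fatty acid carrier, from 18.1 to 63.3.

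Several letter patterns were searched for before the start of the genes. The stretch of each of the 5 genes that rose in some comparison is shown because all of them hold a copy of ACGTG. These letters are the core of the hypoxia response element, and they also lie inside the E-box CACGTG. Of the 50 genes 36 matched a RefSeq promoter (GRCm38.p6), and the 250 bases before the start were searched for ACGTG on both strands. Capitals mark the letters ACGTG or their complement CACGT. Offsets are counted from the base before the start, which is -1, to the first base of the match.
Slc2a1: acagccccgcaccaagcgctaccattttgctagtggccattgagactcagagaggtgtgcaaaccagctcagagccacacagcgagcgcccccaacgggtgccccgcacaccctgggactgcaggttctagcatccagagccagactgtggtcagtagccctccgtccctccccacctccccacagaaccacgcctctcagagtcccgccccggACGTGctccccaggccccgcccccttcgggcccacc
Slc3a2: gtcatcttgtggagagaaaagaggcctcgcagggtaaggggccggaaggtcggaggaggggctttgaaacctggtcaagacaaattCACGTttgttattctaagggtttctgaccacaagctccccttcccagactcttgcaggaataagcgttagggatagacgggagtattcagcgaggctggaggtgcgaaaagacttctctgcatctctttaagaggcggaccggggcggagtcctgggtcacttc
Slc39a1: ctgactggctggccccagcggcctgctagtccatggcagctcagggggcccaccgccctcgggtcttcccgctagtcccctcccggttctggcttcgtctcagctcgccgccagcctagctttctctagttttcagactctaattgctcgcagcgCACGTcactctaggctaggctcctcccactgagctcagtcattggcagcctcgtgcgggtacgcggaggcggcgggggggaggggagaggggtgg
Slc12a9: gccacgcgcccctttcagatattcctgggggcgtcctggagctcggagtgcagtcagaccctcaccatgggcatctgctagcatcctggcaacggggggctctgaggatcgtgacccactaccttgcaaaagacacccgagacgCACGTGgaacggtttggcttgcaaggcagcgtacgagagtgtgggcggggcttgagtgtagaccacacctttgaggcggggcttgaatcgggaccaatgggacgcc
Slc25a3: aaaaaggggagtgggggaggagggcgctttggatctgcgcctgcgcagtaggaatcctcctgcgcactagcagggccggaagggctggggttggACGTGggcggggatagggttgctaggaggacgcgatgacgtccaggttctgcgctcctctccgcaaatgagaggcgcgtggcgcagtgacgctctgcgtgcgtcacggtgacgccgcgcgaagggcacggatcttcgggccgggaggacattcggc
These windows are chr4:119108495-119108744 on the plus strand, chr19:8713898-8714147 on the minus strand, chr3:90247942-90248191 on the plus strand, chr5:137333583-137333832 on the minus strand and chr10:91123968-91124217 on the minus strand. The match starts at -36 in Slc2a1, -164 in Slc3a2, -95 in Slc39a1 and -156 in Slc25a3, and in Slc12a9 2 overlapping matches at -106 and -105 form CACGTG. Among the 4 genes that fell, Slc7a7, Slc39a11 and Slc31a2 have an entry and no ACGTG in any of their 8 windows, and Slc39a4 has none. ACGTG was found in 11 of the 36 members with an entry (30.6%), in 27.7% of 3113 tested granulocyte genes and in 18.5% of all 27025 genes with an entry. Counted by window, it was in 16.57% of all 32851 promoter windows and in 23.91% of the 46 windows of members. The window of Slc3a2 lies inside the gene as GENCODE draws it, at a start used by RefSeq. The pattern GGGCGG was also searched for, and all 5 genes that rose hold it too. Some windows of Slc7a7 and Slc39a11 hold it, and that of Slc31a2 does not. It was found in 60.87% of the 46 windows of members and in 32.74% of all 32851 windows. Sharing a pattern thus does not single out ACGTG. The other patterns searched for were TGATGNAAT, TGCACNC and TGCGCNC. In the 46 windows of members their shares were 0%, 17.39% and 10.87%, beside 0.82%, 10.4% and 12.51% of all windows. A link of any of these patterns to the rises was not tested. A match is a description of letters and not a site.

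On the scale of the deposited values most members, like most features of that level, stood higher in granulocytes than in the T cell libraries. The median log2 difference was 0.87 for the members and 0.54 for all features of that level. With reads scaled to the library total (CPM) it was 0.44 and -0.07, so for the features the statement depends on the scale. Means were above those of each T cell population for 32 of the 50 (64%), beside 62.5% of all features of that level. They were below each for 13 (26%), beside 26.2% of these features. The level chose the members, so no test was made. In 5 genes every granulocyte library lay above all 40 T cell libraries, beside 11.2% of features: SLC16A3, SLC2A3, SLC31A2, SLC27A4 and the scaffold SLC9A3R1. SLC16A3 stood at 194 to 1342 in granulocytes and 1.94 to 124 in T cells, SLC2A3 at 244 to 525.9 and 3.61 to 164, and SLC31A2 at 34.8 to 102 and 0 to 24.4. SLC27A4 stood at 18.1 to 63.3 and 0 to 13.4. SLC2A1 was 2.18 higher in granulocytes on the log2(value + 4) scale, with means of 127 in granulocytes and 19.7, 28.6 and 25.9 in CD4, CD8 and Treg libraries.

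Below each T cell population stood SLC50A1, with means of 10.1 in granulocytes and 38.5, 39.9 and 27.6 in CD4, CD8 and Treg libraries, SLC44A2, and SLC3A2 at 40.8 against 61.1, 59.5 and 114. The mitochondrial carriers SLC25A3, SLC25A5 (an ADP-ATP carrier) and SLC25A1 (the citrate carrier), and the Golgi carriers SLC35C2, SLC35B2, SLC35C1 and SLC35A4 were also below. Totals of the deposited values were higher in granulocytes. On the CPM scale, in which reads are scaled to the library total, 4 of the 50 members changed the sign of their difference. Among all 3180 features of that level, 685 did so. The members SLC25A28, SLC38A10, SLC39A11 and SLC25A12 were higher on the value scale and lower in CPM. The T cell libraries hold neutrophil transcripts, whose summed value was 200.8 to 34320, and their part in the T cell values was not tested.

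**Figure D3:**
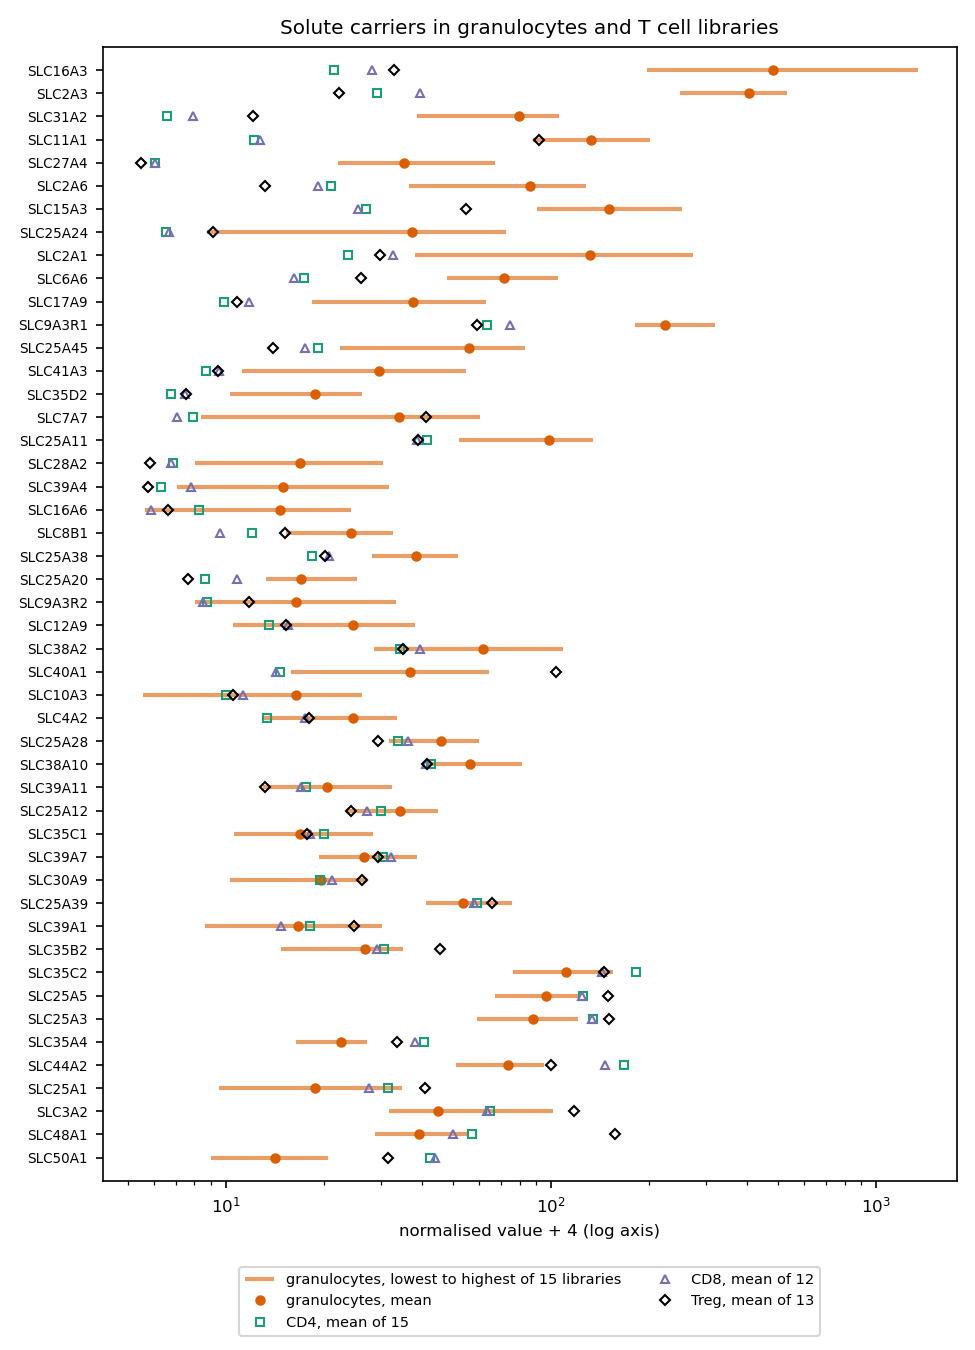
Normalised value + 4 on a log axis (x) for 48 of the 50 genes (y): the orange line runs from the lowest to the highest of 15 granulocyte libraries with the mean as a dot, and open symbols are the means of 15 CD4, 12 CD8 and 13 Treg libraries. SLC16A3 and SLC2A3 stand to the right of all T cell means and SLC50A1 to the left, and the Treg mean stands apart to the right for SLC40A1 and SLC48A1.

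In normal marrow the iron and haem carriers stood higher in Treg libraries than in CD4 and CD8 libraries, while in the core these populations overlapped. SLC40A1 was at 233 ± 101 in Treg libraries of normal marrow (mean ± SD, n = 4), 63.8 ± 24.6 in early, 38.7 ± 25.6 in late peripheral and 18.9 ± 18.1 in core marrow (n = 3 each), against 33.7 ± 8.96 in normal granulocytes and 3.85 ± 2.44 in normal CD4 cells (n = 4 each). In the core, SLC40A1 was at 39.3, 13.1 and 4.49 in Treg, 0, 30.3 and 12.95 in CD4 and 0 and 37.9 in CD8 libraries. SLC48A1 stood at 259 ± 38.6, 111 ± 36.9, 138 ± 65.2 and 69.7 ± 24.1 in the same 4 Treg groups, and SLC11A1 at 157 ± 23.7, 80.4 ± 16.5, 47.1 ± 27.3 and 42.8 ± 33.8. SLC7A7 stood at 66.8 ± 16.1 in normal, 42.0 ± 15.5 in early, 22.6 ± 13.2 in late peripheral and 7.98 ± 12.6 in core Treg libraries. SLC40A1, SLC48A1 and SLC11A1 are known from macrophages that recycle iron, and SLC7A7 is also expressed in macrophages. The 8 macrophage markers summed to 6764 to 7673 in normal, 3906 to 4986 in early, 1322 to 5714 in late peripheral and 173.7 to 2625 in core Treg libraries, and to at most 1710 in CD4 and CD8 libraries. No marker of that list was at 0 in any Treg group. Their part in these values was not tested, and no test was made among Treg stages.

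**Figure D4:**
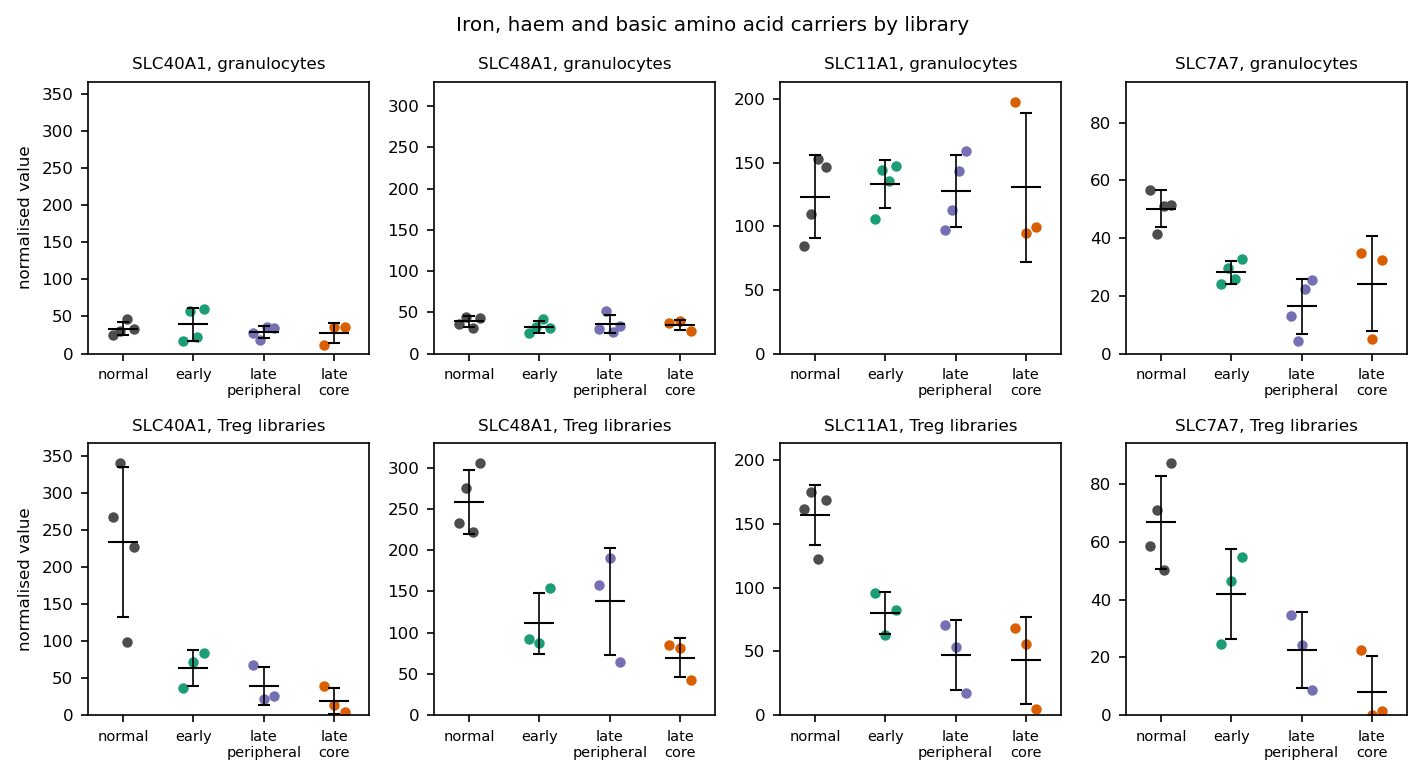
Normalised value (y axis, from 0, the same scale within a gene) by marrow (x axis) for 4 genes in granulocytes (upper row) and Treg libraries (lower row); points are libraries and bars are mean and SD. In Treg libraries all 4 stood highest in normal marrow, while in granulocytes SLC40A1, SLC48A1 and SLC11A1 overlapped between marrows.

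Between the core and the late peripheral marrow, CD4 cells are the other population with 3 and 4 libraries. In CD4 cells 37 of the 50 members passed the filter and 0 were called by limma, beside 2.01% of 4534 tested genes (1.59% higher and 0.419% lower); 6 had an unadjusted p under 0.05, edgeR and DESeq2 called 0, and limma-voom called SLC25A38 and SLC2A1. SLC2A1 in CD4 cells stood at 14.3 ± 3.53 in late peripheral marrow (n = 4) and 31.4 ± 4.51 in the core (n = 3), a difference of 0.97 ± 0.29 (limma adjusted p = 0.104), beside 0.77 ± 0.28 in granulocytes. In CD8 and Treg libraries, not tested here, it stood at 25.01 ± 4.46 and 14.2 ± 4.56 in late peripheral marrow and at 45.4 ± 18.97 and 70.3 ± 32.5 in the core (n = 2 each for CD8 and 3 each for Treg).

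The core against peripheral difference itself differed between granulocytes and CD4 cells for 1 of 37 members, beside 0.575% of 3129 tested genes (0.224% with a higher and 0.352% with a lower effect in granulocytes). SLC25A38, the mitochondrial glycine importer of haem synthesis, went from 40.9 ± 7.17 (n = 4) in late peripheral to 30.99 ± 8.10 (n = 3) in core granulocytes, and from 8.09 ± 2.83 (n = 4) to 21.8 ± 4.99 (n = 3) in CD4 cells. The difference of the 2 effects was -1.48 ± 0.36 on the log2 scale (limma adjusted p = 0.0429). It held in 16 of 42 alternatives, with an adjusted p of 0.0244 to 0.999 over them, and in neither population did its own comparison pass. The file-name number as a block was not among these alternatives. The p-value thus treats libraries that may share a mouse as independent.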

How the data were processed

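The submitters' processing notes for these MARS-seq libraries name fastp 0.20.0, STAR 2.6.0c with the build GRCm38, and DESeq2 1.30.1. The counter, the annotation and the use of molecular tags are not recorded there. The deposited values are a normalised signal: reads of a gene divided by 1 factor per library, apparently set over all 55 libraries, since their median ratios were 0.997 to 1.055. Divided by what 1 read is worth in its library, every value (100%) was whole within 0.01. Symbols are human-style; all 50 members matched a mouse gene of that name in GENCODE for GRCm38.

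Members and gene lists were chosen with earlier results of these data known, as were the 2 alternatives on libraries with lung transcripts. Genes that reached a value of 10 in 3 or more libraries entered limma 3.58.1 (R 4.3.3), run with trend and robust options on log2(value + 4): 1 fit of the 15 granulocyte libraries, 1 of the 15 CD4 libraries and 1 of both for the difference of effects. This scale understates the change of low genes. Adjusted p-values are Benjamini-Hochberg over all tested genes, with a threshold of 0.05. The procedure was tested on simulated data. Alternatives were pseudocounts of 1 and 10, no filter, a filter at 30, RLE scaling, CPM, edgeR 4.0.16, DESeq2 1.42.0 and limma-voom on recovered reads, leaving out each library, and replicate blocks. Granulocyte libraries held 357058 to 1633022 reads, and their number limits the precision of low genes.

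The series design says that the late sites share a mouse, and libraries were paired by the number in their file names, which no label gives as the mouse. Deviations of the 3 granulocyte pairs correlated at -0.337, 0.510 and 0.194, and those of the 3 CD4 pairs at 0.285, 0.219 and 0.292. No 2 replicates agreed within sampling noise.

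Named genes were every member past the threshold in a granulocyte comparison, a fixed set of transporters whatever their p, and up to 4 genes past the threshold of each of 6 companion lists. Some members are counted but not reported by name here.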

Additional observations from a re-analysis of the deposited data

Results flagged for a closer look

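In 3 of 57 groups of 4 libraries that were looked at, 1 library stood far from the others, where chance gives about 1 in 20. SLC39A11 was at 9.031 in early replicate 1, below the other early libraries at 16.6 to 17.8. SLC3A2 was at 41.8 in normal replicate 4, above the other normal libraries at 31.5 to 32.99. SLC7A5 was at 19.43 in early replicate 3, above the other early libraries at 8.43 to 9.19.

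The core against late peripheral effect of SLC25A38 differed between granulocytes and CD4 cells by -1.4841 on the log2 scale, by limma's test of that difference (adjusted p = 0.0429). It was lost in 26 of 42 alternatives.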

How the results depend on the processing

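No called value changed its sign under any alternative run, over 3005 values of the named genes. In 2872 of these the outcome, called or not called, was that of the main fit. Only 20 of the 104 main values were called, so this count is largely of values that stayed uncalled. Calls were less stable: that of SLC39A11 in late peripheral against normal marrow held in 11 of 27 alternatives. The number of members called also moved. With a filter at a value of 30, which drops members from the test, it was 1 for early against normal, 2 for late peripheral against normal, 4 for the core against normal and 0 for the difference of effects. Without a filter it was 0 for the core against late peripheral marrow and 0 for the difference of effects. With reads scaled to the library total it was 3 for late peripheral against normal and 0 for the core against late peripheral, and the median of all genes then moved to 0.21 and -0.33. This median was -0.11 for the core against normal, 0.24 for late peripheral against early and -0.23 for the difference of effects. The same scaling called 2 members higher and 0 lower for early, 2 higher and 1 lower for late peripheral, and 4 higher and 1 lower for the core, each against normal. In libraries without lung transcripts, with 1 core library, it was 1 for early, 12 for the core against normal, 9 for the core against late peripheral and 0 for the difference. In only the libraries with them it was 1, 0 and 1 for early, late peripheral and core against normal, 0 for the core against late peripheral and 0 for the difference. With these transcripts as a term, 2 were called for the core against late peripheral, SLC2A1 and SLC3A2. Limma-voom called 2 in CD4 cells, and a pseudocount of 1 and RLE scaling gave 0 for the difference. The cause of these shifts was not tested. The counts in this section have no share of all genes under the same setting beside them. They therefore do not set solute carriers apart from other genes.

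Leaving out 1 library gave 1 to 4 calls for early, 2 to 6 for late peripheral and 4 to 8 for core granulocytes against normal, 0 to 3 for the core against late peripheral, 0 to 3 in CD4 cells and 0 to 1 for the difference. The fewest came without normal replicate 1 for early and for the core (also without normal replicate 3 or core replicate 3), and without normal replicate 4 for late peripheral.

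With the file-name number, taken as the animal, as a replicate block 1 member was called for the core against late peripheral, SLC16A3 in place of SLC3A2, and 0 in CD4 cells. With the title number as a replicate block the counts were 3, 4 and 5 against normal, 0 for late peripheral against early, 1 for the core against late peripheral and 1 for the difference. Reads limit the low genes: the SLC39A4 value of core replicate 3 rests on 2 reads.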

Other observations

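Solute carriers below the limit also moved in granulocytes. SLC6A13, a carrier of GABA and taurine, stood at 14.3 to 25.2 in normal libraries and at 1.51 to 7.28 in all metastatic ones, with limma log2 differences of -1.71 ± 0.29 in early (adjusted p = 0.00218), -1.44 ± 0.29 in late peripheral (adjusted p = 0.00532) and -1.55 ± 0.32 in core granulocytes (adjusted p = 0.00345). SLC15A4, an endolysosomal peptide and histidine carrier, was lower in the core by limma (-0.97 ± 0.30, adjusted p = 0.0374).

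Of 6 tested genes of a glutathione and thioredoxin list, GCLM, the regulatory subunit of the enzyme that starts glutathione synthesis, rose in early marrow from 33.9 ± 9.47 to 130.3 ± 54.1 (n = 4 each; limma adjusted p = 0.041). GPX4, which reduces lipid peroxides, fell in late peripheral marrow from 179.9 ± 27.2 to 98.7 ± 20.7 (n = 4 each; limma adjusted p = 0.0248). None of 2 tested genes of a zinc and copper list and none of 8 of a proton pump and lysosome list passed in any of the 5 granulocyte comparisons by limma.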
